A study of Homo sapiens with 3 samples.

Results

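The p53 target genes described here were 34 genes that p53 is known to activate, chosen by name from textbook knowledge of the p53 response, by a rule that uses no value of these libraries but was written with earlier results of these data known. All 34 were found among the 23131 gene rows of the expression table, 33 under their own symbol and *TIGAR* under its older symbol *C12orf5*. The cells were HCT-116, a colon carcinoma line with wild-type *APC* and a β-catenin that lacks Ser45 and so escapes the degradation that APC directs. The anti-*APC* cells received a pool of siRNAs against *APC* in transfections on consecutive days and were harvested 48 hours after the second, and the control cells were labelled both as untransfected and as mock-treated with transfection reagent alone. Both groups therefore shared the stabilised β-catenin, and each was 1 library of 1 cell line, so no replicate error, standard error or *p* value could be had for any value below. A library of cells given a scrambled siRNA belonged to the same experiment, and its values were not used here, so the comparison contains any effect of siRNA delivery together with that of *APC* silencing. Levels are FPKM, fragments per kilobase of transcript after normalisation to library size, as the authors deposited them, and differences are log2 ratios of anti-*APC* over untransfected FPKM without a pseudocount.

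p53 is a transcription factor that DNA damage and other stresses stabilise, and it raises genes that halt the cell cycle, start apoptosis, repair DNA and adjust metabolism. It also raises *MDM2*, whose product marks p53 for degradation, and other genes that feed back on p53 itself. In unstressed cells the same targets also have a basal level. Failed estimates, listed at 0 in both libraries, numbered 269 rows, and 0 of the members were among them.

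p53 binds DNA at a response element made of 2 adjoining decamers, each with a core of C and G around a pair of A or T letters, inside flanking purines and pyrimidines. Within 2500 bases of the transcript start, on either strand, 14 of the 34 members (41.2%) held a 20-base match to this element with both cores kept and at most 2 mismatches in the flanking letters. The same was true of 259 of 11337 scanned genes that passed the level filter described below (2.28%). With at most 1 mismatch the counts were 5 members (14.7%) and 47 genes (0.415%). A match is a description of the letters and not evidence of binding. The following matches are shown because they belong to the 3 members with the largest log2 ratios (*PMAIP1*, *ZMAT3* and *PLK2*), to the best known arrest target (*CDKN1A*), to a member with a close match and almost equal levels (*GADD45A*), and to the member with the lowest log2 ratio (*GDF15*). They are written 5′ to 3′ on the strand of the gene, with the cores in capitals.
PMAIP1: gggCTTGtttaccCAAGtct
ZMAT3: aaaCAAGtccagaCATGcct
PLK2: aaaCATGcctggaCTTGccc
CDKN1A: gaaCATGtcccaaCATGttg
GADD45A: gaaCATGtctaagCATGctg
GDF15: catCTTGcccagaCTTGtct

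On GRCh37 the *PMAIP1* match lay at chr18:57566781-57566800 on the plus strand, at -437 bases from the transcript start, and had 2 mismatches. The *ZMAT3* match lay at chr3:178787976-178787995 on the minus strand, in intron 1, and the *PLK2* match at chr5:57758101-57758120 on the minus strand, upstream of the gene. These were the members' matches with 0 mismatches. The *CDKN1A* match was at chr6:36644226-36644245 on the plus strand, at -2255 bases from the canonical start and with 2 mismatches, and the *GDF15* match at chr19:18496118-18496137 on the plus strand, also upstream and with 2 mismatches. The *GADD45A* match, at chr1:68152458-68152477 on the plus strand, lay in intron 3 and had 1 mismatch.

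The silenced gene was checked first. *APC* was at 9.15 FPKM in the untransfected and 3.43 FPKM in the anti-*APC* library, a ratio of 0.375. *CTNNB1*, which encodes β-catenin, was at 177 and 178 FPKM. Among 1659 genes below 0.1 FPKM and above 0 in both libraries, the most frequent ratio, that of equal read numbers, put the depth of the anti-*APC* library at 0.913 times that of the other, and the absolute depth is unknown. Of 10 markers of colon epithelium 6 (*CDH1*, *CDX2*, *EPCAM*, *KRT8*, *KRT18* and *KRT19*) reached 1 FPKM in both libraries, while *CEACAM5*, *LGALS4* and *VIL1* were at 0 in at least 1, and the summed level was 1650 and 1295 FPKM in the untransfected and anti-*APC* library. For fibroblasts 1 of 6 markers (*COL1A1*) and for leukocytes 1 of 5 (*CD68*) reached 1 FPKM, with sums of 2.88 and 3.13 FPKM and of 8.99 and 5.16 FPKM, and the 3 endothelial markers summed to under 0.1 FPKM in both. Both libraries were of 1 cell line, so these values are levels of marker genes within that line and no count of cell types. The part of these shifts in the results was not tested. In such bulk RNA fewer cells with a marker and less of it per cell cannot be told apart.

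The question was how the level of known p53 targets differed between cells with silenced *APC* and control cells. Of the 34 members 33 had a mean of at least 1 FPKM and a value above 0 in both libraries, as did 12063 rows of the table. *PMAIP1*, *ZMAT3* and *PLK2* were at least 1.5-fold higher in the anti-*APC* library (9.09% of the members that passed, against 2.56% of all genes that passed), and 0 members were at least 1.5-fold lower (6.61% of all genes). With a smaller limit, 0.32 on the log2 scale, 7 members were higher (21.2%, against 7.17% of all genes) and 1 was lower (3.03%, against 18.4%). The ratio was above 1 in 20 of 33 members (60.6%, against 41.4% of all genes), and it lay within 1.1-fold of equality in 11 members (33.3%, against 42.1%). The members' median log2 ratio was 0.14, with quartiles of -0.08 and 0.29, and that of all genes was -0.05, with quartiles of -0.24 and 0.11. Without the 7 members grouped as feedback on p53 and other regulators, the members' median was 0.0049. Over all genes, 309 were at least 1.5-fold higher and 797 lower, and after the median of genes of like level was subtracted 406 were higher and 531 lower, whereas the members' counts stayed at 3 and 0.

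With 1 library each, the only yardstick for a single gene was how widely genes of like level were scattered. The genes were divided into 5 equal level groups by mean FPKM, and the central 90% of log2 ratios ran from -0.90 to 0.56 in the lowest level group and from -0.45 to 0.38 in the highest. *PMAIP1*, *ZMAT3*, *PPM1D*, *PLK2*, *MDM2* and *TRIAP1* lay above the 95th percentile of their level group, where 5.02% of all genes lie by construction, and 0 members lay below the 5th. The other 27 members that passed were within the range that held 90% of genes of their level. This scatter holds true differences between the libraries as well as measurement error, and it is no replicate error.

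**Figure D1:**
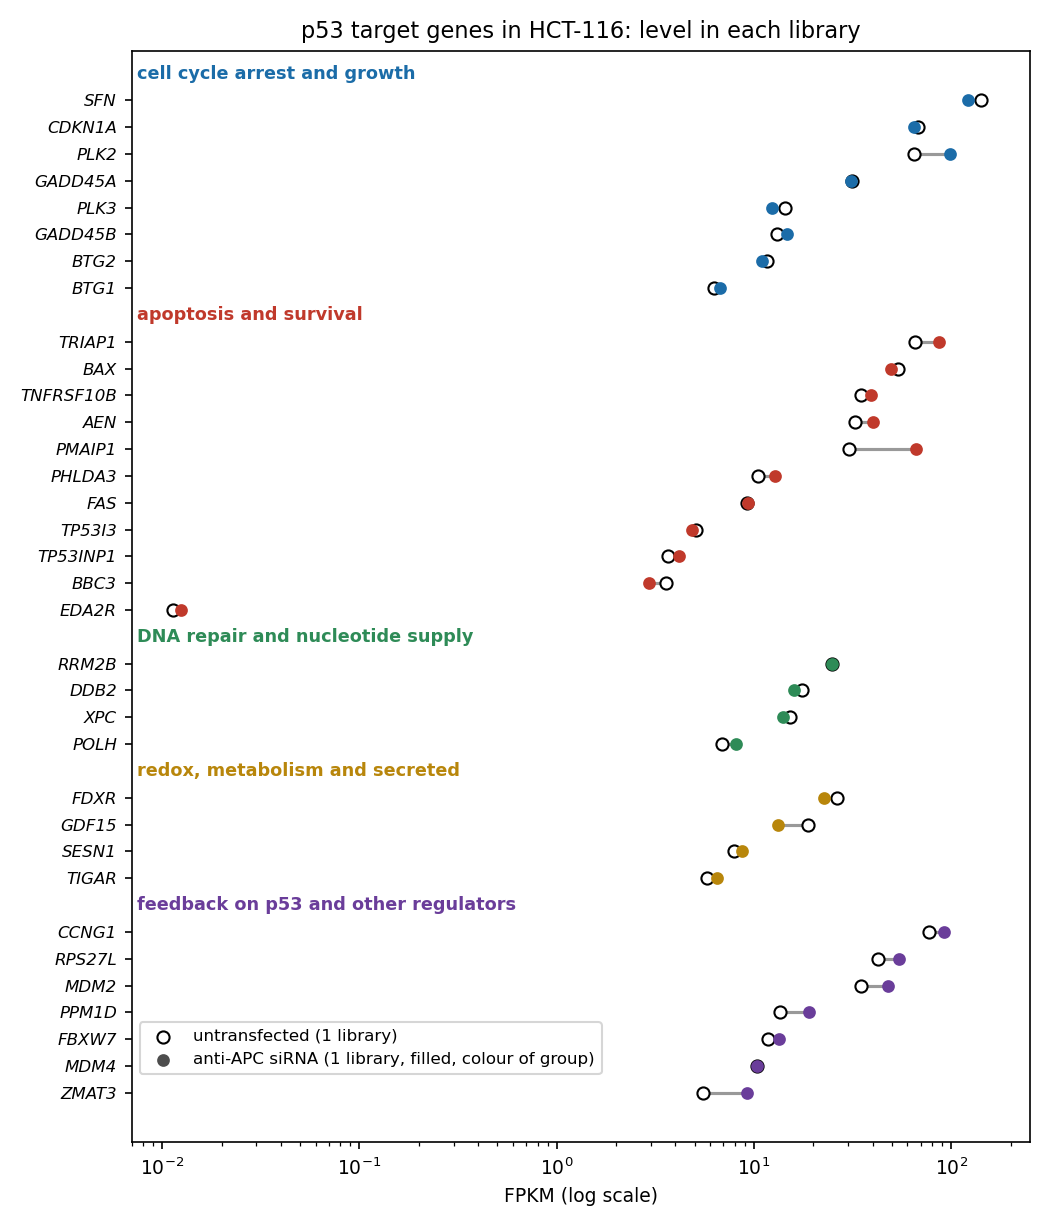
FPKM of each member in the untransfected and the anti-*APC* library on a log axis, grouped by role, with 1 point for each library and a line joining both. Most pairs of points look close because the axis is wide. Of the 33 members that passed, 11 are within 1.1-fold of equality (33.3%, against 42.1% of all genes). The widest gaps are those of *PMAIP1* (30.3 and 66.6 FPKM), *ZMAT3* (5.52 and 9.26 FPKM) and *PLK2* (64.5 and 98.9 FPKM), each with the anti-*APC* library above. *EDA2R*, at about 0.01 FPKM in both, is the lowest.

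The members were mostly at levels common among the genes that passed. From the lowest to the highest of the 5 equal level groups, these held 2, 7, 10, 6 and 8 members. The middle level group of all genes ran from a mean of 9.66 to 19.2 FPKM. In the untransfected library the 33 members that passed ran from 3.60 FPKM for *BBC3* to 141 FPKM for *SFN*, with a median of 15.3 FPKM, and in the anti-*APC* library the same genes marked the ends, at 2.95 and 121 FPKM, with a median of 14.8 FPKM. At least 10 FPKM was reached by 24 members in each library, and at least 50 FPKM by 6 and 7. *EDA2R*, an X-linked receptor of the TNF family, was at 0.0113 and 0.0124 FPKM, whose ratio is that of equal read numbers in both libraries, and no fold is given for it.

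The members of the feedback and regulator group, 7 genes, had the highest median log2 ratio of the 5 roles, 0.35, and their FPKM summed to 196 in the untransfected and 246 in the anti-*APC* library. In 6 of the 7 the anti-*APC* library was higher, in 4 of them by at least 0.32 on the log2 scale. Over all genes that passed, 41.4% had a ratio above 1 and 7.17% were higher by at least 0.32. These shares stand beside the counts of every role. *ZMAT3*, a p53 target that encodes an RNA-binding zinc finger protein (chr3:178677909-178790003, minus strand), was at 5.52 FPKM in untransfected and 9.26 FPKM in anti-*APC* cells, a log2 ratio of 0.75, above 98.6% of genes of like level. *PPM1D* encodes the phosphatase WIP1, which dephosphorylates p53 and the kinases that activate it (chr17:58677554-58743641, plus strand). It was at 13.6 and 19.0 FPKM, a log2 ratio of 0.49, above 98.1% of its level group. *MDM2*, the ubiquitin ligase that directs p53 to degradation (chr12:69201957-69239324, plus strand), was at 35.0 and 47.6 FPKM, a log2 ratio of 0.45, above 97.1% of its level group. These 3 genes, all of which restrain p53 or are raised by it, were higher in the anti-*APC* library by more than most genes of their level.

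The other members of this group were closer to equality. *RPS27L*, a p53-induced paralog of the ribosomal protein gene *RPS27*, was at 42.8 and 54.4 FPKM, a log2 ratio of 0.35 at the 94.1 percentile of its level group. *CCNG1* encodes cyclin G1, which recruits a phosphatase to MDM2, and was at 77.3 and 91.6 FPKM, a log2 ratio of 0.24. *FBXW7*, the substrate receptor of a ubiquitin ligase for MYC and cyclin E, was at 11.8 and 13.4 FPKM, a log2 ratio of 0.18. *MDM4*, the MDM2 relative that blocks the activation domain of p53, had practically the same value in both, 10.35 and 10.34 FPKM. Because each library gives both genes, the level of *MDM2* over that of *MDM4* can be read within a library, and it was 3.38 in untransfected and 4.60 in anti-*APC* cells.

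Among members that act in apoptosis and survival, 10 passed the filter. Their median log2 ratio was 0.18, 7 ratios were above 1 and 3 below, and their FPKM summed to 249 and 316. *PMAIP1* encodes NOXA, a BH3-only protein that neutralises the survival protein MCL1 (chr18:57567228-57571537, plus strand). It was at 30.3 FPKM in untransfected and 66.6 FPKM in anti-*APC* cells, a log2 ratio of 1.14, the largest of all members and above 99.5% of its level group. *BBC3*, which encodes PUMA, the other BH3-only member, was at 3.60 and 2.95 FPKM, a log2 ratio of -0.29 at the 38.8 percentile of its level group, and of -0.11 after the median of that group was subtracted. Within a library *PMAIP1* stood at 8.43 times *BBC3* in untransfected and at 22.6 times in anti-*APC* cells, a ratio that also holds the lower median of genes at the level of *BBC3*.

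*BAX*, the pore-forming protein that BH3-only proteins release, was at 53.6 and 49.7 FPKM, a log2 ratio of -0.11. *PMAIP1* was thus below *BAX* in untransfected cells, at 0.566 times its level, and above it in anti-*APC* cells, at 1.34 times. *TP53I3* (PIG3), a quinone oxidoreductase linked to reactive oxygen species, was at 5.06 and 4.85 FPKM, a log2 ratio of -0.06. The death receptor genes *FAS*, at 9.25 and 9.31 FPKM, and *TNFRSF10B* (DR5, the TRAIL receptor), at 34.8 and 39.3 FPKM, had log2 ratios of 0.01 and 0.18, both inside the central range of their level. Both ratios were smaller than that of *PMAIP1*.

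*TRIAP1*, a small mitochondrial protein gene that favours survival and lies at chr12:120881767-120884187 on the minus strand, was at 65.9 and 86.3 FPKM, a log2 ratio of 0.39 at the 95.1 percentile of its level group. *AEN*, an exonuclease that degrades DNA in dying cells, was at 32.3 and 40.0 FPKM, a log2 ratio of 0.31. *PHLDA3*, a repressor of AKT, was at 10.4 and 12.7 FPKM, a log2 ratio of 0.29. *AEN* and *PHLDA3* lay at the 93.7 and 92.8 percentile of their level groups, short of the 95th. *TP53INP1*, which promotes autophagy and p53 phosphorylation, was at 3.68 and 4.18 FPKM, a log2 ratio of 0.18.

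The 8 members that arrest the cell cycle or restrain growth had a median log2 ratio of -0.04, with 3 ratios above 1 and 5 below, and summed to 350 and 361 FPKM. The sign of this small median turned to 0.01 when the median of all genes was subtracted. *CDKN1A*, which encodes p21, the inhibitor of cyclin-dependent kinases, was at 67.9 FPKM in untransfected and 65.1 FPKM in anti-*APC* cells, a log2 ratio of -0.06. *SFN* (14-3-3 sigma), which holds cyclin B1 and CDK1 in the cytoplasm, was the most abundant member at 141 and 121 FPKM, a log2 ratio of -0.22. The best known arrest genes were thus nearly level or slightly lower in the anti-*APC* library, within the range that held most genes of their level.

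*PLK2* differed from the rest of this group. It encodes a polo-like kinase of centriole duplication and the stress response (chr5:57749809-57755966, minus strand), and it was at 64.5 FPKM in untransfected and 98.9 FPKM in anti-*APC* cells, a log2 ratio of 0.62, above 97.7% of its level group. Its paralog *PLK3*, also a stress kinase, was at 14.3 and 12.4 FPKM, a log2 ratio of -0.21. *PLK2* over *PLK3* was accordingly 4.50 in untransfected and 7.99 in anti-*APC* cells. The *GADD45* genes, whose small proteins bind CDK1 and stress kinase cascades, were at 31.5 and 31.2 FPKM for *GADD45A* and at 13.1 and 14.8 FPKM for *GADD45B*, log2 ratios of -0.02 and 0.17. The antiproliferative genes of the BTG family were similar in both libraries, *BTG1* at 6.26 and 6.70 FPKM and *BTG2* at 11.6 and 11.0 FPKM, with log2 ratios of 0.10 and -0.08. Among these paralog pairs the widest split was that of the polo-like kinases.

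The 4 members in DNA repair and nucleotide supply had a median log2 ratio of -0.06 and summed to 64.4 and 62.9 FPKM. *DDB2* and *XPC*, which recognise damage in nucleotide excision repair, were at 17.5 and 15.9 FPKM and at 15.3 and 14.1 FPKM, log2 ratios of -0.14 and -0.12. *POLH*, the polymerase that copies past ultraviolet lesions, was at 6.87 and 8.12 FPKM, a log2 ratio of 0.24. *RRM2B*, the p53-inducible ribonucleotide reductase subunit, was at 24.79 FPKM in both. All 4 lay within the central range of their level.

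In the redox, metabolism and secreted group, 4 genes, the median log2 ratio was -0.04 (0.02 after the median of all genes was subtracted) and the sum was 58.8 and 51.2 FPKM. *GDF15*, a secreted stress cytokine of the TGF-β family, had the lowest ratio of all members, at 18.8 FPKM in untransfected and 13.2 FPKM in anti-*APC* cells, a log2 ratio of -0.51 at the 5.80 percentile of its level group. Its locus also holds the microRNA gene *MIR3189* on the same strand, which was listed at 0 in the untransfected and at 158 FPKM in the anti-*APC* library, and how reads were divided between both is not given in the sources used here. *FDXR*, the mitochondrial ferredoxin reductase, was at 26.3 and 22.8 FPKM, a log2 ratio of -0.21. *SESN1*, a sestrin that dampens mTORC1, was at 7.90 and 8.70 FPKM and *TIGAR*, which lowers glycolytic flux, at 5.78 and 6.52 FPKM, log2 ratios of 0.14 and 0.17. The part of *MIR3189* in the *GDF15* value was not tested.

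**Figure D2:**
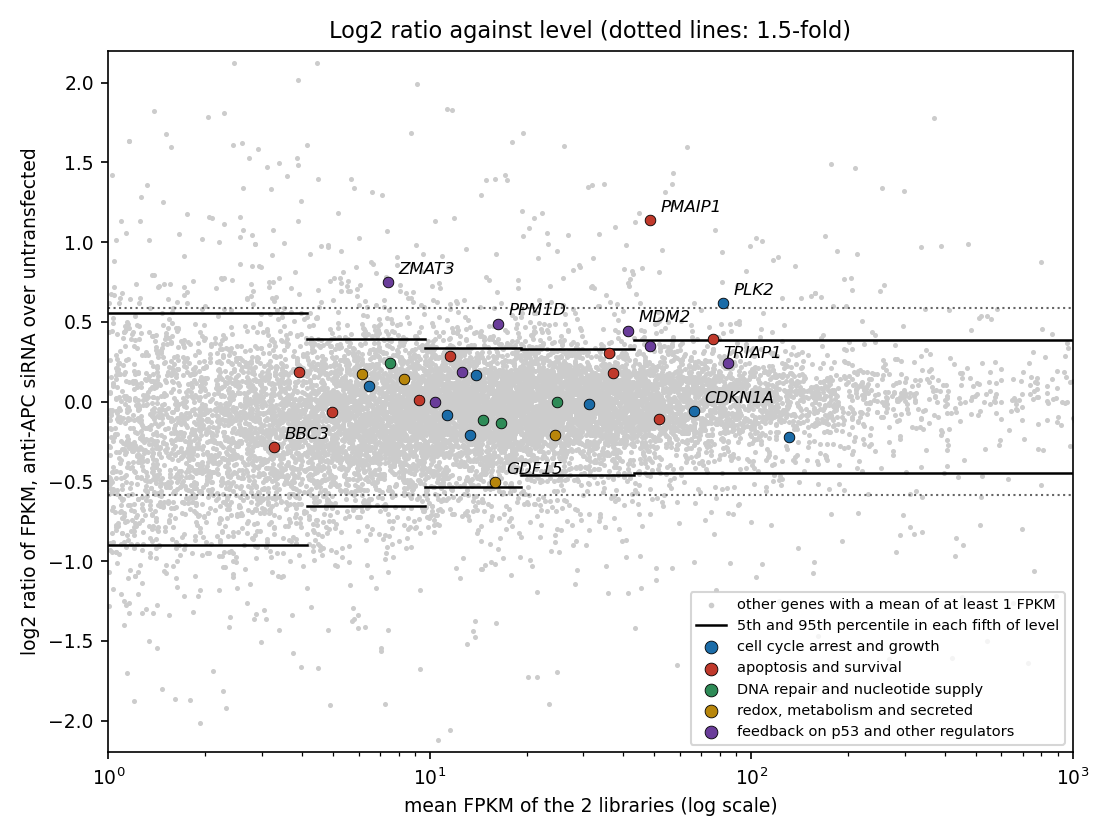
Log2 ratio of anti-*APC* over untransfected FPKM against the mean FPKM of both libraries (log axis) for the 12063 genes that passed the filter (small grey points, of which 119 lie beyond the axes) and for the 33 members (coloured by role). The solid lines mark the 5th and 95th percentile within each of the 5 level groups, and the dotted lines mark 1.5-fold. *PMAIP1*, *ZMAT3*, *PLK2*, *PPM1D*, *MDM2* and *TRIAP1* are above the upper solid line, and 0 members are under the lower solid line.

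Single members can also be set against *CDKN1A* within a library, where scaling between libraries plays no part. *PMAIP1*, taken because its log2 ratio was the largest, was at 0.447 times *CDKN1A* in untransfected and at 1.02 times in anti-*APC* cells. *BAX*, *TP53I3* and *FAS*, also of the apoptosis group, had log2 ratios near that of *CDKN1A*, between -0.11 and 0.01. Others of the group, *TRIAP1*, *AEN* and *PHLDA3*, were at 0.39, 0.31 and 0.29. The group median was 0.18, with 7 ratios above 1 and 3 below, so the *PMAIP1* value does not stand for the group. *MDM2* was at 0.515 times *CDKN1A* in untransfected and at 0.732 times in anti-*APC* cells. The 2 *GADD45* genes and the 2 *BTG* genes moved less, with *GADD45A* over *GADD45B* at 2.40 and 2.11 and *BTG2* over *BTG1* at 1.86 and 1.64.

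A match to the p53 response element was not part of the rule that chose the members, although binding by p53 is part of why such genes are known as its targets. Of the members that passed, 13 held a match, with a median log2 ratio of 0.17 and a range from -0.51 to 1.14, and 20 held none, with a median of 0.12 and a range from -0.29 to 0.49. All 3 members at least 1.5-fold higher held a match, and 0 of the 20 without one were past this fold. Among all scanned genes that passed, 3.47% of 259 with a match and 2.11% of 11078 without one were at least 1.5-fold higher. With the members left out these shares were nearly the same, 2.44% of 246 and 2.12% of 11058. *ZMAT3* and *PLK2*, the members with 0 mismatches, were among the 3 higher members. However, *GADD45A*, *RRM2B* and *CCNG1*, with 1 mismatch, had log2 ratios of -0.02, 0.00 and 0.24, and *CDKN1A* and *GDF15*, with 2, of -0.06 and -0.51. Of the 15 matches 6 lay upstream of the transcript start and 9 downstream. *MDM2* held no match in this window, which says only that these letters were not found there.

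**Figure D3:**
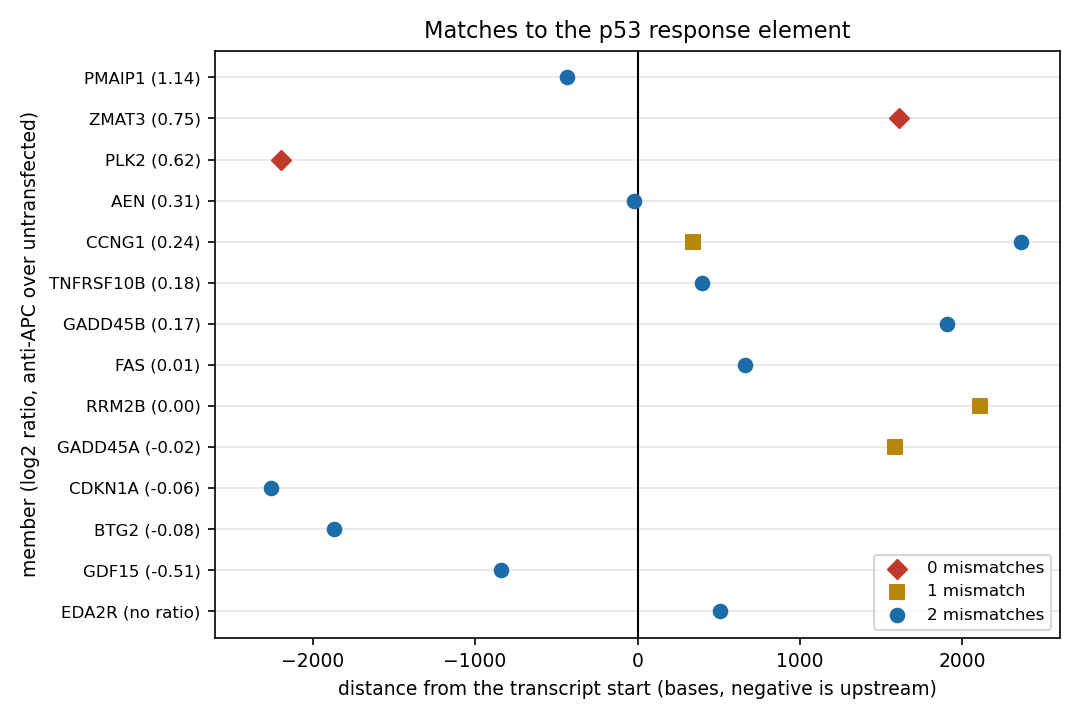
Distance of each match to the p53 response element from the transcript start (in bases, negative upstream) for the 14 members that held one. The 13 that passed the level filter are ordered by the log2 ratio beside each name, and *EDA2R*, for which no ratio is given, stands last. Symbols give the number of mismatches in the flanking letters. The diamonds, for 0 mismatches, are *ZMAT3* and *PLK2*, near the top of the order, and matches with 1 or 2 mismatches occur from *PMAIP1* at the top to *GDF15*, the lowest of the 13.

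Other genes of the pathway were taken from lists of known function. Over all genes that passed, 2.56% were at least 1.5-fold higher and 6.61% lower, and the counts of each list stand beside these shares. Of 67 further genes that p53 activates, 62 passed the filter, with a median log2 ratio of -0.08, and 4 were at least 1.5-fold higher and 5 lower. Those higher were *ARHGEF3* (11.8 and 26.9 FPKM, log2 ratio 1.19), *TNFRSF10D*, a decoy TRAIL receptor (21.9 and 45.4 FPKM, 1.05), *ATF3*, a stress transcription factor (15.7 and 31.1 FPKM, 0.99) and *SESN2*, a sestrin (4.21 and 7.55 FPKM, 0.84). Those lower were *DDIT4*, an inhibitor of mTORC1 (49.9 and 21.7 FPKM, log2 ratio -1.20), *SYTL1* (6.78 and 3.33 FPKM, -1.03), *PERP*, a desmosomal apoptosis effector (42.1 and 25.8 FPKM, -0.70), *EPS8L2* (17.3 and 10.8 FPKM, -0.68) and the cytokine gene *LIF* (12.1 and 7.76 FPKM, -0.64). In this longer list 25 ratios were above 1 and 37 below, while 41.4% of all genes had a ratio above 1.

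Regulators upstream of p53 and its family numbered 24 genes, of which 4 were failed estimates and 19 passed, with a median log2 ratio of -0.01. Of the 19, 0 were higher by at least 1.5-fold (2.56% of all genes). *PPP1R13B* (ASPP1), which steers p53 to apoptotic targets, was the 1 gene lower by this fold (6.61% of all genes), at 3.77 and 2.15 FPKM, a log2 ratio of -0.81. Cell cycle genes that p53 and p21 lower numbered 30, and all passed, with a median log2 ratio of 0.06. Their ratios were above 1 in 20 and below in 10, against 41.4% of all genes above 1. Of these *CDC25A*, the phosphatase that activates CDK2, was the 1 gene past 1.5-fold, at 24.0 and 39.4 FPKM, a log2 ratio of 0.72. Among 25 genes listed as paralogs of the members, some of which only share a motif or process with a member, 23 passed, with a median of 0.10. The lists share some genes. *SESN2*, already counted among the further genes that p53 activates, and *BCL2L11* were at least 1.5-fold higher while 0 were lower. *BCL2L11* (BIM, a BH3-only protein) was at 6.96 and 10.7 FPKM, a log2 ratio of 0.63.

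**Figure D4:**
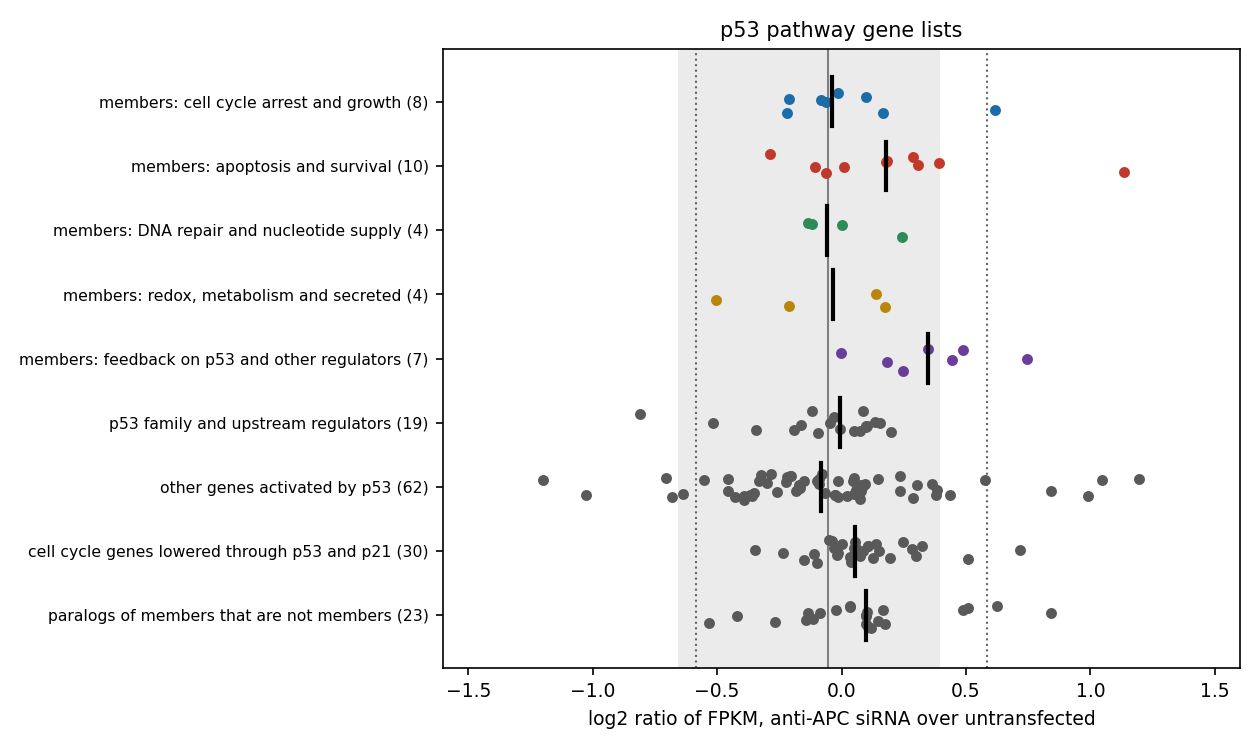
Log2 ratio of anti-*APC* over untransfected FPKM for each gene that passed the filter, by role of the members and for the further lists (1 point per gene, bars for the list medians). The shaded band holds the central 90% of the 12063 genes, the solid line is their median of -0.05, and the dotted lines mark 1.5-fold. The medians run from -0.08 for the further genes activated by p53 to 0.35 for the feedback and regulator group.

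Several members share their locus with another gene, and use of strand in counting is not given in the sources used here, so reads could be divided wrongly. *BBC3*, *FAS*, *FBXW7*, *GDF15*, *PLK3*, *POLH* and *TNFRSF10B* were estimated at loci with further genes. *TP53INP1* overlapped *NDUFAF6*, whose level was higher than its own in both libraries and differed in the same direction (9.67 and 11.1 FPKM), *MDM2* overlapped *CPM* (2.72 and 1.46 FPKM) and *RPS27L* overlapped *LACTB* (6.41 and 6.23 FPKM). *PMAIP1*, *ZMAT3*, *PLK2*, *PPM1D* and *TRIAP1* overlapped no other listed gene, and when the 23 such members that passed were taken alone, 3 were at least 1.5-fold higher and 0 lower.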

How the data were processed

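RNA of HCT-116 cells was measured in 3 libraries, 1 per condition (anti-*APC* siRNA, scrambled siRNA, untransfected). The authors made TruSeq libraries for single reads and ran Cufflinks and Cuffdiff, with hg19 named in the submitters' processing notes. They deposited FPKM of 2 libraries, anti-*APC* and untransfected. Versions and aligner are not given in the sources used here. The labels name a HiSeq instrument and the study's methods a Genome Analyzer II. The table also holds the authors' own ln ratio, test statistic, *p* and *q*, none of which was used, and a status, from which failed estimates were marked.

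Genes with a mean of at least 1 FPKM and above 0 in both libraries were kept. Log2 ratios, medians, counts past 1.5-fold and percentiles within 5 equal groups by mean FPKM were computed with Python 3.11.15, numpy 2.4.6 and pandas 2.3.3, and plotted with matplotlib 3.10.9. The code was checked on simulated 2-fold changes with less scatter than these data, which tests the arithmetic and not the values reported. Depth is unknown, so no counting interval is given. Without replicates no test was made. Positions and overlaps are from GENCODE 44 on GRCh37, as are the transcript starts used to search for p53 elements. 94% of rows that passed were scanned. Named are all 34 members, *APC*, *CTNNB1*, genes sharing a locus, and from each list genes past 1.5-fold (at most 6 in each direction). A further gene of the rule is not reported here. Members and lists were chosen with earlier results of these data known. Alternatives were pseudocounts, centring, other level filters and folds, loci with 1 gene, and leaving out each role in turn. Members that overlap no other listed gene were added after seeing the data.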

Additional observations from a re-analysis of the deposited data

How the results depend on the processing

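The counts of 3 members at least 1.5-fold higher and 0 lower were the same with a pseudocount of 1 or 0.1 FPKM, after centring on all genes or on genes of like level, with a minimum mean of 0.1 or 5 FPKM, with no level filter, at loci with 1 gene (26 members) and among members that overlap no listed gene (23). They followed the fold chosen: 7 were higher and 1 lower past 0.32 on the log2 scale, and 1 was higher (*PMAIP1*) at 2-fold. The members' median log2 ratio of 0.14 ranged from 0.0993 to 0.197 under these settings and when a role other than feedback and other regulators was left out. Without the 7 members of the feedback and regulator group, the role with the highest median, it was 0.0049, against -0.05 for all genes. Leaving out the highest role lowers the median by construction, so this shows only how much of its size came with that role. Of 132 log2 ratios recomputed for single members, each moved by less than the scatter of genes of like level. Under centring the ratios of *GADD45A* (-0.02 to 0.04), *MDM4* (-0.00 to 0.05) and *TP53I3* (-0.06 to 0.03) changed sign. The median of the apoptosis group was 0.29 in place of 0.18 at a minimum mean of 5 FPKM, which leaves out *BBC3*, *TP53INP1* and *TP53I3*. The log2 ratio of *BBC3* moved most, from -0.29 to -0.11 after the median of genes of like level was subtracted. With 1 library per condition, unknown depth and no scrambled control in the comparison, a difference between conditions cannot be told apart from a difference between libraries.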

Other observations

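Matches to the p53 response element with 0 mismatches in the 20 bases were searched in all scanned genes. Among those that passed the level filter 7 genes held one, *PLK2*, *ZMAT3*, *BBS2*, *GLI2*, *OSTM1*, *RAB6B* and *TCTEX1D2*. The 5 that are no members were all the others with such a match, and it was decided to report them after their values were seen. *TCTEX1D2* was at 1.82 FPKM in untransfected and 4.59 FPKM in anti-*APC* cells, a log2 ratio of 1.33, and *OSTM1*, which encodes a lysosomal membrane protein, was at 3.62 and 6.96 FPKM, a log2 ratio of 0.95. *GLI2*, a transcription factor of hedgehog signalling, was at 1.16 and 1.31 FPKM, *BBS2*, of the ciliary BBSome, at 9.40 and 7.44 FPKM, and *RAB6B* at 2.30 and 1.55 FPKM, log2 ratios of 0.18, -0.34 and -0.57. The search was prompted by *PLK2* and *ZMAT3*, so they are left out of the counts that follow. Of the 5 genes that are no members 2 were at least 1.5-fold higher and 0 lower, with a median log2 ratio of 0.18. *RAB6B*, at -0.57, fell just short of the lower limit, 0.585 below equality on the log2 scale. *TCTEX1D2*, *GLI2* and *RAB6B* belonged to the lowest level group, whose central 90% of log2 ratios ran from -0.90 to 0.56. Of 37 genes that are no members and whose best match had 1 mismatch 0 were higher and 3 lower, of 204 with 2 mismatches 4 were higher and 9 lower, and of the 11058 without a match 2.12% were higher and 6.16% lower. The first count rests on 5 genes of 1 library per condition, and the pattern was not tested.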
